A study of Drosophila melanogaster with 6 samples.

Results

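Truncation sites at an adenosine (A) in 5' UTRs with no C-to-T site on the next base were described in m6A miCLIP data from S2R+ cells, a cultured Drosophila line with features of haemocytes. The sites were selected on the base at the truncation, on the authors' label of the mRNA part, and on the absence of a listed C-to-T site exactly 1 nt downstream on the same strand. They numbered 3903 of the 22917 truncation sites listed, of 7778 truncations labelled 5' UTR (50.2%) and of 5623 of these at A (69.4%, Wilson 95% interval 68.2% to 70.6%). The other 1720 of these were followed by a C-to-T site on the next base and are called paired here. All cells were untreated, and their poly(A) RNA was fragmented. It then went into 4 replicate immunoprecipitations (IPs) with an m6A antibody, 1 control IP without crosslinking and 1 library of the fragmented mRNA as input. A site was listed where 2, 3 or 4 of the IPs shared it, with values already combined over IPs, so no value below has an SD or an n over samples, and no site of the controls was analysed here. The lists hold no expression levels, so the haemocyte character of the line could not be checked against marker RNA.

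N6-methyladenosine is placed on mRNA by a methyltransferase complex whose catalytic core in flies is formed by Mettl3 and Mettl14, and it is bound by reader proteins such as Ythdc1. In miCLIP the antibody is crosslinked to the RNA beside the methylated base, and reverse transcriptase meeting the crosslink either stops, which leaves a truncated cDNA, or reads through with a base change. Methylation of an A that precedes a C is the usual arrangement in mRNA, which is why a truncation at A followed by a C-to-T change counts as the most direct sign of a modified base. A truncation with no such change can stand at a modified A whose change was too rare to be called, at an A not followed by C, or at an A that was not modified, and the lists do not separate these.

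The unpaired A truncations were the common form in every part of the mRNA. In coding sequence 97.0% of 3294 truncations at A lacked the C-to-T site, and in 3' UTRs 85.0% of 1362 lacked it, so the share was lowest in 5' UTRs. Just outside the rule lie the paired sites themselves, with the C-to-T site at 1 nt. Just inside it, 66 members had a C-to-T site 2 nt downstream, against 5 at 3 nt, 6 at 4 nt and 5 at 1 nt upstream. Those 66 had a median peak height of 25.6 (quartiles 16.4 and 32.9), and 35 of them were seen in 2 IPs, 15 in 3 and 16 in 4. In all, 86 members (2.20%) had a C-to-T site within 3 nt, 723 (18.5%) within 50 nt and 1239 (31.7%) within 100 nt.

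Support by IPs was spread evenly over the unpaired 5' UTR sites. Of the 3903, 1330 (34.1%) were found in 2 IPs, 1251 (32.1%) in 3 and 1322 (33.9%, interval 32.4% to 35.4%) in all 4. Among paired sites 63.9% were in all 4 IPs (interval 61.6% to 66.1%), and among 5' UTR truncations at T 17.5% were. Unpaired truncations at A in coding sequence (23.4%) and in 3' UTRs (24.5%) also reached 4 IPs less often than those in 5' UTRs, with intervals that did not overlap. Agreement between mapping tools followed the same order, with all 3 aligners giving 83.3% of paired sites, 71.2% of members and 42.0% of T sites. A further 648 members (16.6%) rested on 1 aligner, 377 of them on STAR. These intervals cover counting error only, and sites of 1 gene are not independent of each other.

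Peak height (PH) is the score that the truncation caller gives each site, and it is used here as the mean over aligners. The members ran from 4 to 413.7, with a median of 15.9 and quartiles of 11.1 and 23.5. Only 10% of them were above 36, and 196 (5.02%) reached 50. Paired 5' UTR sites had a median of 37.1 (quartiles 24.75 and 59), and 33.7% of them reached 50. The members thus lay near the 5' UTR truncations at T (median 15.1) and the unpaired A sites of coding sequence (12.5) and 3' UTRs (13.7) rather than near their paired neighbours. Both the calling of a change and peak height depend on how many tags cover a base, so the absence of a C-to-T site is not independent of peak height, and no test was made.

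**Figure D1:**
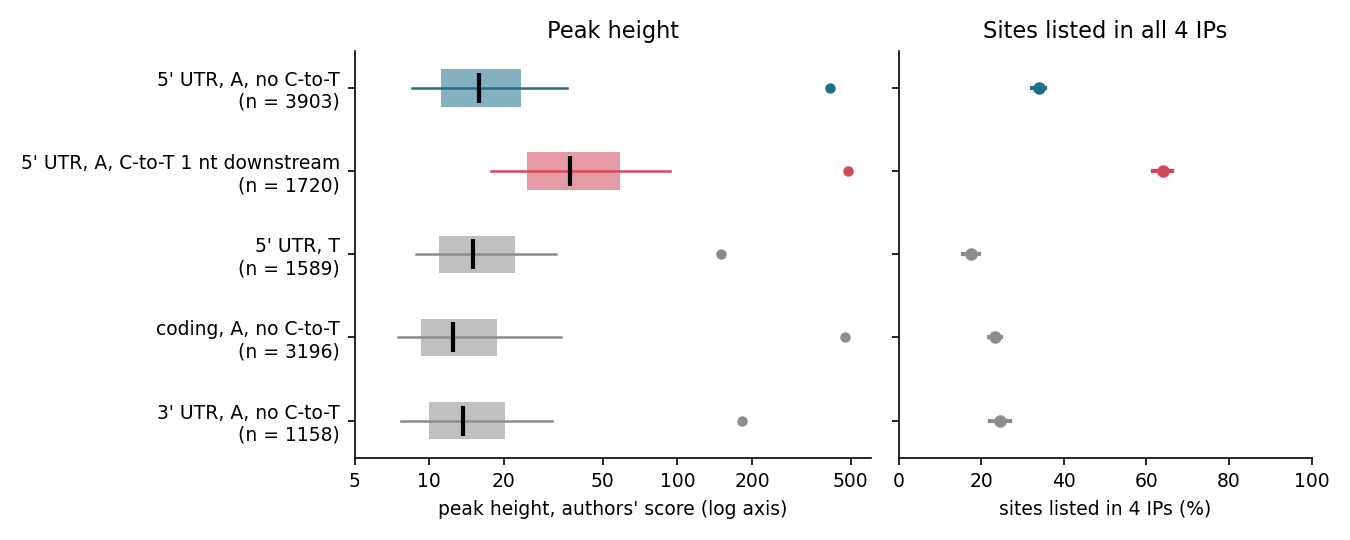
Left, peak height of each class of truncation on a log axis, with the median as a black tick, the quartiles as a box, the 10th to 90th percentiles as a line and the tallest site as a point. Right, percent of sites listed in all 4 IPs with Wilson 95% intervals. The paired class stands at a median of 37.1 and 63.9%, and the unpaired 5' UTR class at 15.9 and 33.9%.

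The gap in height was present at each level of IP support. Members in 2, 3 and 4 IPs had medians of 12, 15 and 22.6, and paired sites had 28.6, 30 and 41.7. A paired site in 2 IPs was therefore, at the median, taller than a member in 4. The sources used here do not say how peak height was combined over IPs, so medians at different numbers of IPs may not be on 1 footing. Coverage was known at C-to-T sites alone, as k, the unique tags that cover the base. For the 723 members with a C-to-T site within 50 nt the nearest one had a median k of 176, and the paired sites' own C-to-T had 201. Where k lay between 150 and 300, a window that was not planned, the 276 members had a median peak height of 26 and the 652 paired sites 39.0. For members this k belongs to a base up to 50 nt away, so coverage was not matched at the truncations themselves. Coverage and mRNA level away from C-to-T sites are unknown, and their part in the difference was not tested.

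The share of 5' UTR truncations at A that lacked a C-to-T site fell with height up to 75 and levelled off above. It was 99.3% of the 684 sites below 10, 83.9% of those from 15 to below 20, 43.8% from 30 to below 40, 22.0% from 75 to below 100 and 22.1% of the 190 sites at 100 or more. Even among the tallest, then, 42 sites had no listed change on the next base. In coding sequence the share stayed at or above 85.4% in every bin below 100 and was 75.5% of 53 sites at 100 or more. In 3' UTRs it fell to 50% of 24 sites. By IP support the 5' UTR share was 84.6% at 2 IPs, 76.7% at 3 and 54.6% at 4, while in coding sequence it was 99.2%, 97.0% and, at 4 IPs, 748 of 804 sites.

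**Figure D2:**
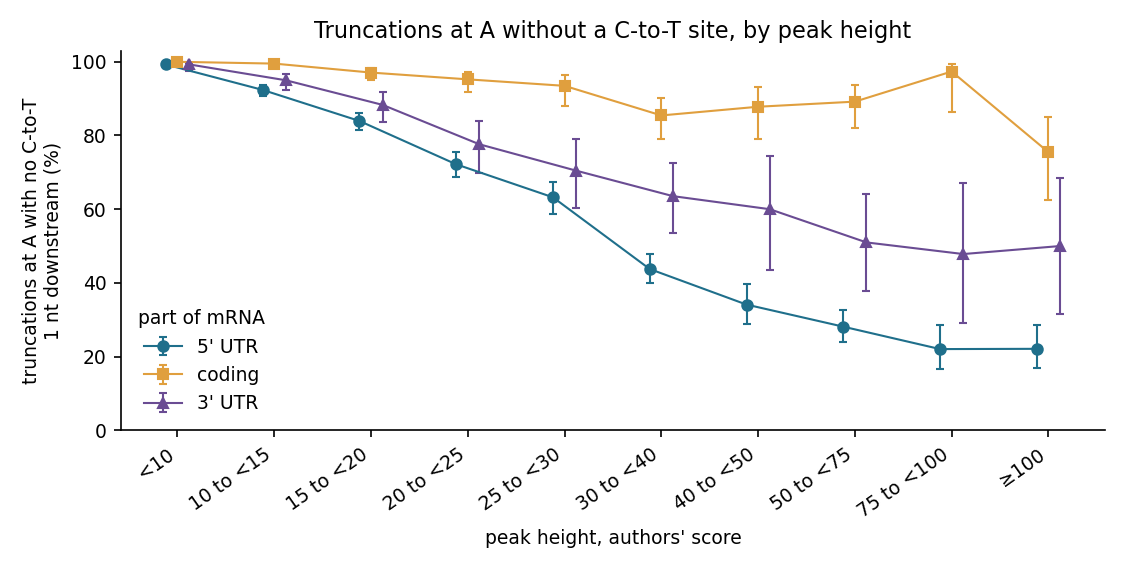
Percent of truncations at A with no C-to-T site 1 nt downstream, by bin of peak height, for 5' UTR, coding sequence and 3' UTR, with Wilson 95% intervals. The 5' UTR line falls from 99.3% to 22.1%, and the coding line ends at 75.5%.

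The tallest unpaired site lay in Fim, which encodes the actin-bundling protein fimbrin, with a peak height of 413.7 (dm6, chromosome X, position 17301677, minus strand). It was in exon 1, 252 nt from the transcription start and 243 nt before the start codon, and the nearest C-to-T site was 15 nt away. A further Fim site, at position 17301540, had 273 and a C-to-T site 3 nt away, so Fim held 2 of the 10 tallest. The next was in puc (puckered), the phosphatase that restrains JNK signalling, at 284.6 (chromosome 3R, position 8105761, plus strand), 100 nt before the start codon. Meltrin, an ADAM-family metalloprotease, had 277.1 (chromosome 3R, position 14697167, minus strand), 125 nt from the start of transcription. Mmp2, a matrix metalloproteinase, had 273.75, at 134 nt before its start codon.

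Of the remaining tall sites, Galphai, the alpha subunit of an inhibitory G protein, had 179.1 (chromosome 3L, position 6979956, minus strand), and MESR3 had 179.6 (chromosome 2L, position 18617546, plus strand). CG31324 had 262.2 (chromosome 3R, position 26107198), CG32676 231.75 (chromosome X, position 10744779) and CG30089 210.5. All 10 were in exon 1 and were found with all 3 aligners, and 9 of the 10 were in all 4 IPs, with MESR3 in 3. Each also had a C-to-T site close by, between 3 nt (Fim) and 73 nt (CG30089) away. Tall sites farther down the ranking did not all have one, such as that of 80.5 in mts, with none within 1000 nt. That site was found in 2 IPs and with 1 aligner.

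The members fell in 1772 genes by the authors' gene names, out of 3801 genes with any truncation in 5' UTR, coding sequence or 3' UTR (46.6%). In 875 genes (49.4%) there was 1 member, in 727 there were 2 to 4, and 170 genes with 5 or more held 1122 members (28.7%). For each gene the longest annotated 5' UTR on which a member was placed was taken. Its median was 319 nt for genes with 1 member, 544 nt for 2 to 4 and 956 nt for 5 or more. A gene with more members has more placements to take the longest from, so part of this rise can come from the measure itself. The members spread over all chromosome arms, with 662 on 2L, 773 on 2R, 806 on 3L, 893 on 3R, 723 on X and 46 on chromosome 4.

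Genes that lacked any C-to-T site made up 856 of the 1772 (48.3%) and held 1406 members with a median peak height of 12. Another 653 genes (36.9%) also held a paired 5' UTR site, and their 1956 members had a median of 19.3. The remaining 263 genes had C-to-T sites elsewhere, with a member median of 16.5. Of the members in these 3 groups 29.8%, 36.6% and 34.6% were in all 4 IPs. Within the 653 genes with both kinds of site, the median paired site was taller than the median member in 543 (83.2%, interval 80.1% to 85.8%), and the median ratio was 1.66 (quartiles 1.18 and 2.45). Yet in 183 of them (28.0%) the tallest A truncation of the 5' UTR was an unpaired one.

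The most members were in bun (bunched), a TSC22-family transcriptional regulator with several promoters. Its 17 members had peak heights from 10.5 to 48.8 with a median of 20.3 and were placed on 6 transcripts, and its 7 paired sites had a median of 42.7. Unr, an RNA-binding protein with cold-shock domains, had 15 members from 14.5 to 32 and 8 paired sites with a median of 36.1. Both kinds were interspersed along 1 exon of a 3478 nt 5' UTR, from 328 nt to 3122 nt after its start. No Unr member was as tall as the paired median, and 5 of the 15 were in all 4 IPs.

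CG32264 had 15 members (median 15.9), and Pdp1, a PAR-domain transcription factor of the circadian clock, had 14 (5.61 to 34.5). SNF4Agamma, the gamma subunit of AMP-activated kinase, stood apart among the 10 genes in having 12 members and no paired site. Its gene held 13 C-to-T sites, none 1 nt after a 5' UTR truncation at A. The 12 peak heights ran from 20.4 to 50.4 with a median of 28.9, and 9 of the 12 were in all 4 IPs. On the transcript with a 610 nt 5' UTR, 7 members lay between 97 and 505 nt from the start, led by sites of 50.4, 41.7, 47.4 and 44.2.

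The kinase gene tlk (Tousled-like kinase) had 12 members between 8.5 and 17.25 and 1 paired site of 18.1, a narrow range in which the paired site was the tallest. In jim, which encodes a zinc-finger protein, 10 of 11 members were at or below 21.5. The other one, of 61.4 and 318 nt from the transcription start, lay in 1 exon with paired sites of 84.1 at 229 nt and 61.3 at 288 nt. Pde11, a cyclic nucleotide phosphodiesterase, had 11 members with a median of 24.6 and 4 paired sites with a median of 43.0. CG30497 had 12 members with a median of 20.4, and CG45186 had 11 with 16.4. Leaving out these 10 genes changed the median of all members from 15.9 to 15.75.

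**Figure D3:**
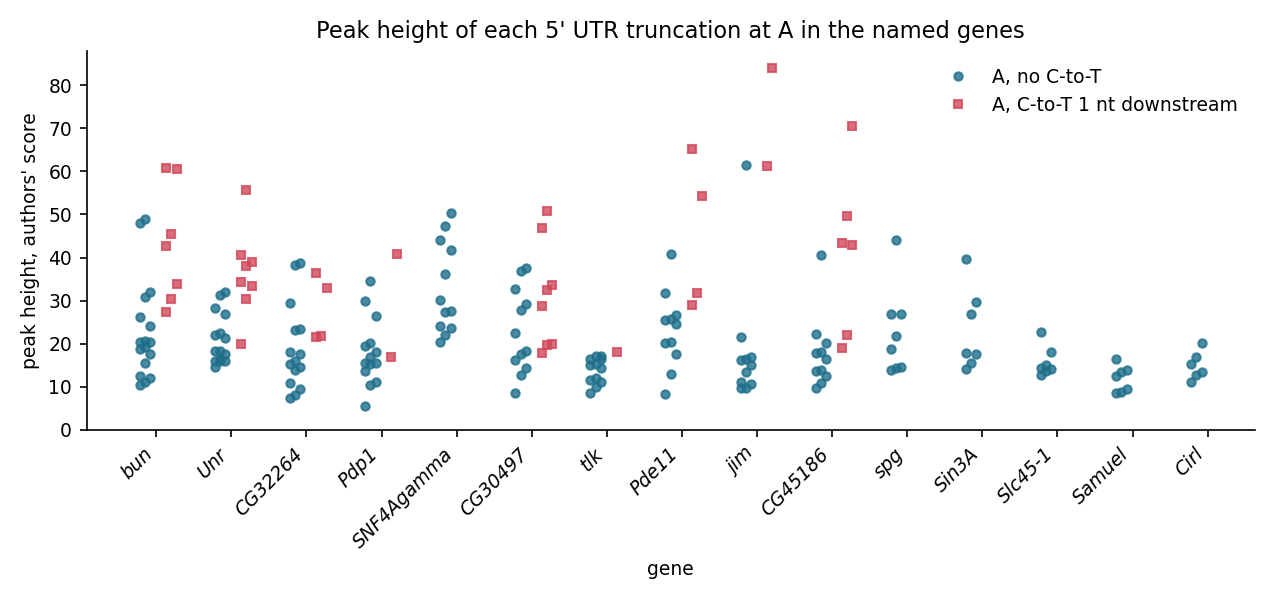
Peak height of every 5' UTR truncation at A in the 10 genes with the most members and in the 5 genes with the most members among those with no C-to-T site, with members as circles and paired sites as squares. Each point is 1 site combined over IPs. SNF4Agamma has 12 circles from 20.4 to 50.4 and no square, and the paired squares of jim stand at 61.3 and 84.1.

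Among genes with no C-to-T site at all, spg (sponge), a DOCK-family guanine nucleotide exchange factor, had the most members. Its 8 sites covered 133 to 583 nt of a 667 nt 5' UTR with peak heights of 14 to 44.1, and none was seen in only 2 IPs. Sin3A, the scaffold of a histone deacetylase corepressor, had 7, the tallest at 39.75 and 3 in all 4 IPs. Slc45-1, of a sugar-transporter family, had 7 from 12.8 to 22.8, 3 of them in all 4 IPs. Samuel had 7 from 8.5 to 16.3, and Cirl (latrophilin, an adhesion G protein-coupled receptor) had 6 from 11 to 20.25, of which 4 were in 2 IPs. The medians of these 5 genes ran from 12.5 (Samuel) to 20.2 (spg), and each gene had at least 1 site in all 4 IPs.

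The members lay inside 5' UTRs rather than at their ends. In the Ensembl annotation 3819 of the 3903 (97.8%) could be placed in a 5' UTR, and the other 84 were annotated as 3' UTR (57), coding sequence (26) or neither (1). The median member was 244 nt from the transcription start and 260 nt before the start codon, in a 5' UTR of 576 nt, and 83.5% were in exon 1. Paired sites were at 282 nt and 312.5 nt in 5' UTRs of 660 nt, and T truncations at 198 nt and 153.5 nt in 5' UTRs of 427 nt. With each 5' UTR cut into 10 equal stretches, the members were fewest in the first (5.13%), most frequent in stretch 4 (12.8%) and down to 7.12% in the last. T truncations had another shape, being most frequent in stretch 8 (12.2%).

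**Figure D4:**
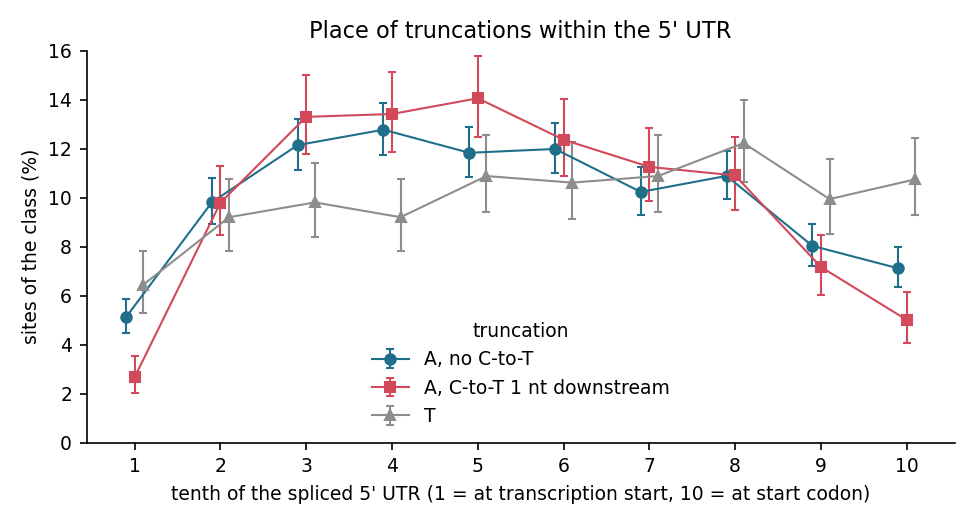
Percent of each class of 5' UTR truncation in each of 10 equal stretches of the spliced 5' UTR, from the transcription start (1) to the start codon (10), with Wilson 95% intervals. Members rise from 5.13% to 12.8% in stretch 4 and fall to 7.12%, and paired sites start lower, at 2.68%.

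Members were more frequent than paired sites near both ends of the 5' UTR. Within 50 nt of the transcription start lay 6.02% of members (interval 5.31% to 6.82%), 1.69% of paired sites (1.18% to 2.42%) and 14.7% of T truncations. Of A truncations there 88.8% were unpaired, against 64.1% to 68.9% in each distance class from 100 nt on. At the start itself, among the first 5 bases, there were 45 members and 30 T truncations, but 0 of 1714 paired sites, which allows a share of up to 0.175% (3 counts of the total). Members within 50 nt of the start were also lower, with a median peak height of 12.9 against 17.2 beyond 800 nt. Paired sites were lower there too, at 28 against 36.7. The last 50 nt before the start codon held 10.4% of members, 6.18% of paired sites and 21.8% of T truncations. The annotated start is an end of an RNA molecule as well as a position in it, and which of these cDNAs ended at a crosslink was not tested.

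Clusters of unpaired sites were rare at short range. With gaps of at most 10 nt, 125 members (3.20%) formed 61 pairs and 1 group of 3, and the other 3778 stood alone. Within 25 nt of another member lay 234 members, within 50 nt 931 (23.9%) and within 100 nt 1786 (45.8%). The spacing changed abruptly between 25 and 26 nt: gaps of 2 to 25 nt were seen in 86 neighbouring pairs of members and gaps of 26 to 50 nt in 383. The same step was present over all truncations of the list, with 44 neighbouring pairs at 25 nt and 140 at 26 nt, so it was not limited to these sites. The sources used here do not say how the caller spaced sites.

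**Figure D5:**
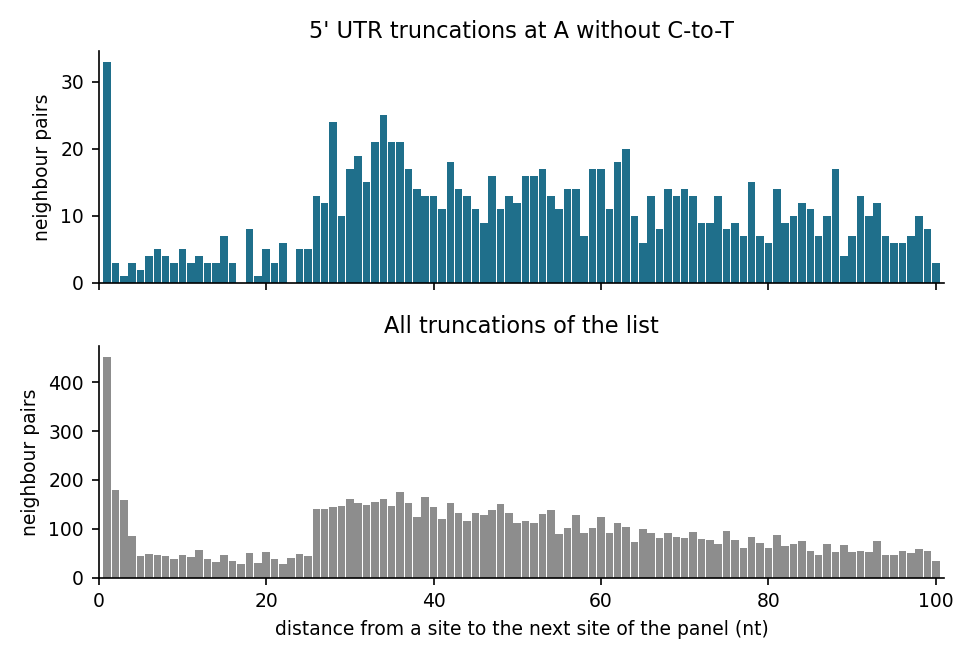
Number of neighbouring pairs by the distance between them in nt, for the unpaired 5' UTR sites (top) and for all truncations (bottom). Both show their highest bar at 1 nt (33 and 452 pairs) and a step between 25 nt (5 and 44 pairs) and 26 nt (13 and 140 pairs). The list as a whole also has many pairs at 2 nt (179) and 3 nt (160), where members have 3 and 1.

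Many of the closest pairs were given by different aligners. Of 33 pairs of members on adjacent bases, 23 shared no aligner, whereas 373 of the 383 pairs 26 to 50 nt apart shared at least 1. Counting only sites found with all 3 aligners, 0.576% of members were in clusters. The group of 3 was in CG11873 (chromosome 3R, positions 29064252 to 29064255), with peak heights of 14.5, 18.75 and 11.5, each in 2 IPs. The pairs of largest summed height were on adjacent bases in mts, the catalytic subunit of protein phosphatase PP2A (50.7 and 80.5), and in Unc-115a, an actin-binding LIM protein (64 and 52.1). CG31729 (47.7 and 35.25, adjacent) and CG32791 (59 and 21.4, 4 nt apart) followed. No site of these pairs or of the group of 3 was found with all 3 aligners, and each mts site rested on 1 aligner. The nearest C-to-T site was 28 nt from the Unc-115a pair and farther from the others, and mts and CG32791 had none within 1000 nt.

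At gaps of up to 50 nt there were 429 groups, and the largest, of 4 members, occurred in 5 genes. Snoo, a Smad corepressor of the Sno family, had 36.3, 56.6, 16 and 32.3 over 121 nt of its first exon. Ptp10D, a receptor tyrosine phosphatase of growing axons, had 11.4, 15, 23.9 and 16.25 with no C-to-T site in the gene. LRP1, of the LDL receptor family, had 13.6, 18.7, 16.1 and 12. CG45092 (13.75 to 26.1) and CG32767 (12.5 to 21) completed them. The highest site of a group exceeded the lowest by between 1.56-fold (LRP1) and 3.54-fold (Snoo).

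Among other truncations within 5 nt of a member, most were on the next base to either side. A truncation 1 nt downstream was listed for 78 members, at A in 60 cases, T in 11, G in 5 and C in 2. One nt upstream 85 were listed, at A in 33. Of the 66 members with a C-to-T site at 2 nt, 27 had a paired A truncation between, so the bases read A, A, C from the lists. In these 27 the member had a median of 24 and its paired neighbour 25.4, the neighbour being taller in 18. Examples are Chc, the clathrin heavy chain, with 50 beside 53.4, Tm1, a tropomyosin, with 33.5 beside 50.5, and puc with 29.25 beside 37. In 14 of the 27 the 2 truncations shared no aligner. A T truncation 2 to 4 nt downstream accompanied 44 members (1.13%) and 2 to 4 nt upstream 5 members. Of the 45 downstream pairs of sites, 22 shared an aligner. Paired sites showed the same asymmetry, at 16 and 2.

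Genes of several signalling and regulatory lists, written with earlier results of these data known, were set beside the 46.6% of all genes with an mRNA truncation that held a member. No list was tested. Receptor tyrosine kinase signalling had 12 of 15 such genes, including pnt, the ETS factor at the end of the Ras pathway (7 members, highest 162.2), kek1, a feedback inhibitor of Egfr (7), aos, its secreted inhibitor (4, no C-to-T site), and sty (sprouty), an intracellular inhibitor (3). In pnt and sty C-to-T sites were also many, at 40 and 45. Notch signalling had 9 of 12, with the receptor N (6 members of 10 to 20.8 and no C-to-T site), the corepressor gro (5), mam (3) and H (3). Hippo signalling had 8 of 10, among them kibra (6, median 46.1), the kinase wts (5), sd and ex (2 each).

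Insulin and TOR signalling had 9 of 11 genes, with the receptor InR, the kinase Pdk1 and the transcription factor foxo at 4 members each. In foxo these were low, from 7.22 to 10.2, and no C-to-T site was listed. Wnt and Hedgehog genes had 9 of 12, led by the kinase sgg (8) and the receptors fz (6) and fz2 (5) and followed by the transcription factor pan (4). Neither fz nor fz2 had a paired site. JAK/STAT and TGF-beta genes had 9 of 14, with the zinc-finger protein shn (10), the inhibitory Smad Dad (6), the receptor dome (5) and Stat92E (5). Immune NF-kB genes had 6 of 12, namely spz (5), Myd88 (4), Tak1 (1), cact (1) and 2 others, a share of 50%.

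Ecdysone-response genes had 8 of 9, with the nuclear receptors ftz-f1 (8), Eip75B (8) and EcR (3) and the ETS factor Eip74EF (3). EcR was the tallest of these, with members of 31, 54 and 121.7 against a paired median of 48.9. Axon guidance genes had 18 of 19, among them ena (5), sli (5), Ptp10D (5) and shot (4). Translational repressors and RNA-binding proteins had 14 of 16, with shep (10), pum (7), Imp (7) and Syp (7). In shep the member median was 17.2 and the paired median 94.4. Stress and cell-cycle transcription factors had 9 of 12, with kay, the Fos protein (9), E2f1 (7), Xrp1 (6) and cnc (5). None of the 6 Xrp1 members was in all 4 IPs, and they ran from 16.5 to 36.5 beside paired sites with a median of 183.25.

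In the translation and m6A lists, of 7 to 26 genes with a truncation, the shares were lower than the 46.6% over all genes. These are small counts and were not tested. Initiation factors had 10 of 26 genes (38.5%), with 4EHP (5, none of which could be placed in an annotated 5' UTR), NAT1 (4), eIF-4E (2) and Rbp2 (2). The 4EHP members spanned positions 24101585 to 24101940 of chromosome 3R. The gene Syx1A spans positions 24101600 to 24105763 on the same minus strand, so it ends at 24101600 and does not start there. The source gene of the 4EHP members is therefore uncertain. Elongation and poly(A)-binding genes had 3 of 7 (42.9%), close to the share over all genes. In EF2 the 2 members of 45.5 (2 aligners) and 101.5 (1 aligner) lay in a 5' UTR of 75 nt. In Ef1alpha48D the single member of 131.5 lay in one of 90 nt, 2 nt from a C-to-T site. It was found in 2 IPs and with 2 aligners. The other gene, eEF1delta, had 1 member of 11.8 in 2 IPs and no C-to-T site. EF2 and Ef1alpha48D carried 79 and 110 C-to-T sites. The m6A pathway list had 2 of 7 genes (28.6%), fl(2)d, a component of the methyltransferase complex (6.5 and 48.2), and Fmr1, an RNA-binding protein (8.67).

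Of 12 haemocyte genes listed, 5 had a truncation in the mRNA and 4 of these held a member. They were the GATA cofactor ush (9 members, median 42, highest 142.4, no paired site), the peroxidase Pxn (3), the GATA factor srp (1) and the engulfment receptor drpr (1). Extracellular matrix genes had 7 of 10, with Pxn again, Mmp2 (2), Mmp1 (2) and the laminin chain LanB1 (1). Actin and cytoskeleton regulators had 14 of 18, with ena, chic (profilin, 4), Fim (3) and the ERM protein Moe (3). SREBP-linked lipid genes had 5 of 7, with the fatty acid synthase CG3523 (5), Acsl (2), Pect (1) and ACC (1).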

How the data were processed

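Poly(A) RNA of S2R+ cells was measured by miCLIP in 4 IPs, with 1 non-crosslinked IP and 1 input. The submitters' processing notes name STAR 2.4.2a, BWA, Novoalign, Bowtie 1.1.2 and cutadapt 1.8 with no role given, and the build dm6. Per the legend deposited with the lists, sites were called with CTK on 3 alignments. The authors' peak height is a score, deposited for each aligner and averaged here over aligners, and where aligners differed in the number of IPs the largest was taken. The sources used here do not say how the score was combined over IPs, nor whether the controls served to filter sites.

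A truncation labelled 5' UTR at A was unpaired where no C-to-T site lay 1 nt downstream. Places came from Ensembl release 115 (BDGP6.54, dm6 coordinates, 1-based), on the canonical transcript or else the longest 5' UTR, and strand was used. The authors' gene name matched for 3899 members, with synonyms checked against position, and 142 lay in exons of more than 1 gene, where the source gene is uncertain. Clusters joined members at most 10 nt apart, and distances to C-to-T sites are genomic. Python 3.11.15 was used, with functions tested on simulated sites.

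Members and gene lists were chosen with earlier results of these data known. Genes were named as the 10 with the most members, the 10 tallest members, the 5 genes with the most members and no C-to-T site, the 5 largest clusters and up to 4 genes of each list with the most members. Ties went to the larger summed peak height, which left out CG11873 (11 members, as in Pde11, jim and CG45186) and N and Dad (6, as in Cirl). One gene that this rule names is not reported here. The A, A, C examples, the largest clusters at 50 nt and details within named genes were chosen after their values were seen. No test over samples was possible, since the 4 IPs are combined. Genome sequence was not used here, so the planned sequence context was not described and no sequence is printed.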

Additional observations from a re-analysis of the deposited data

How the results depend on the processing

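The share of 5' UTR truncations at A without a C-to-T site, and the share of members in 4 IPs, depended most on which sites were kept. With sites of all 3 aligners, 44.1% of members were in 4 IPs, their median peak height was 16.8, 0.576% were in clusters, and 66.0% of 5' UTR truncations at A were unpaired. With sites in 4 IPs, 1322 members remained, with medians of 22.6 and 41.7 for members and paired sites, 0.303% in clusters and 54.6% unpaired. The highest peak height over aligners gave medians of 16.5 and 39.3, and sites at or below the members' median p-value, which is the lowest listed, gave 22.3 and 39.75. That filter, extended after seeing the data to the other values, left 1953 members, 57.0% of them in 4 IPs, and 56.3% of 5' UTR truncations at A unpaired. Clusters held 2.13% of members at gaps of 5 nt and 23.9% at 50 nt. Requiring no C-to-T site within 3 nt left 3817 members, and leaving out the 10 genes with the most members left 3773. Taking 5' UTRs from the annotation gave 4007. The 3 nt rule, leaving out the 10 genes and the annotated 5' UTRs moved no share or median beyond its interval. Each setting named before them moved at least 1. Using the transcript with the longest or the shortest 5' UTR, also chosen after seeing the data, put the median member 253 or 208 nt from the transcription start. Under each alternative run, the paired median stayed above the member median. No paired analysis was possible because the deposited values are combined over the IPs, and for the same reason no replicate could be left out. The alternatives for sequence context were not run. Depth is known as k at C-to-T sites alone, so a member may lack a C-to-T site because too few tags covered the next base, which was not tested.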
